A study of Mus musculus with 6 samples.

Results

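The caspases are the proteases that carry out apoptosis, and the Bcl2 family decides at the mitochondrion whether they are switched on. Their transcripts were followed in DR4 mouse embryonic fibroblasts on a pair of Affymetrix array types, MOE430A and MOE430B. Members were all probe sets with a single annotated gene symbol that began with Casp and a digit or with Bcl2, or that was 1 of 16 named regulators (Bax, Bak1, Bad, Bid, Bik, Bok, Bbc3, Pmaip1, Mcl1, Apaf1, Cycs, Diablo, Birc2, Birc3, Cflar and Fadd). A probe set is the group of short oligonucleotides by which such an array measures a transcript. The rule found 77 probe sets of 33 genes among 18193 genes with a single symbol, 63 of the 22626 probe sets on MOE430A and 14 of the 22511 on MOE430B. The prefixes gave 18 of these genes and the named regulators 15, and Bax was not analysed here. A single probe set measured 11 of the genes and several measured 22. Both array types held 9 genes, and Bcl2l12 was measured on MOE430B alone.

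In the mitochondrial route, BH3-only proteins such as Bim, Puma and Bad bind some or all of the guardians Mcl1, Bcl-xL, Bcl-w and Bcl2. Pore formers such as Bak1 then open the outer mitochondrial membrane. Cytochrome c leaks out and builds the apoptosome with Apaf1, which activates caspase-9. In the death receptor route, Fadd recruits caspase-8, Cflar holds it back, and Bid carries the signal to the mitochondrion. Most of this machinery is made in advance and kept in check by protein binding and cleavage, so a transcript level does not measure cell death.

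DR4 cells are feeders, fibroblasts that line the dish beneath embryonic stem cells. Per the labels they came from day 15 embryos and were profiled as a control for J1, R1 and V6.5 stem cells, which were not analysed here. Total RNA of 3 replicates was profiled on both array types, which makes 6 samples in 1 group, with no treated or comparison group. In the labels' notation, the RNA of replicate 1 was made from 12x10e6 cells and had a concentration of 2.4 ug/ul. For replicates 2 and 3 the labels give 3x10e6 cells and 3.0 ug/ul. All cells were kept in D-MEM with serum, beta-mercaptoethanol and LIF on gelatin. No label gives the strain, the alleles carried, the passage, growth arrest by irradiation or a drug, or whether the replicates were separate cultures. Any p-value below therefore rests on scatter that may be technical, and how this scatter was estimated is given with the test.

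Values are MAS5 signals, linear intensities that the submitters' software gave for each probe set. Triplets of values stand in the order of replicates 1, 2 and 3, and ± marks the SD of 3 arrays. Each array had been scaled to the same trimmed mean, 1500.5 on MOE430A and 1500.2 on MOE430B. The median of all probe sets that are not controls served as a floor within each array, 687, 683 and 732 on MOE430A and 846, 913 and 903 on MOE430B. A probe set was counted as above the median only if it lay above it on all 3 arrays of its type, and a gene if any of its probe sets did. This floor is relative, so a gene under it is not shown to be silent and a gene over it is not shown to be translated. Probe sets differ in how well they hybridize, so no signal of a probe set is set against that of another to rank transcripts.

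Of the lists of cell type markers, the fibroblast list had 12 of 12 genes above the median, among them Col1a1 (80483, 107005 and 133057) and Vim (164029, 130581 and 153518). The macrophage and myeloid list had 3 of 10 (Csf1r, Cd14 and Lyz2), and its pan-leukocyte marker Ptprc read 56.9, 29.9 and 181. The pluripotent list had 1 of 8, epithelium 2 of 8 and endothelium 2 of 7. What share of any apoptosis transcript came from cells other than fibroblasts was not tested.

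Genes for most steps of both routes lay above the array median. Of the 33 genes, 22 lay above the median (66.7%), against 54.8% of all genes with a single symbol. Both measured pore formers, 4 of 5 guardians, 4 of 6 BH3-only genes, 5 of 6 caspase partners and the executioner Casp6 were above it. The 11 genes not above it were Bcl2l10, Bcl2l14, Bcl2l15, Bik, Birc2, Birc3, Casp1, Casp4, Casp8ap2, Casp9 and Pmaip1. In RNA of bulk cells, fewer cells of a type and less RNA per cell cannot be told apart. A gene with more probe sets has more chances to pass: of all genes with 1 probe set 38.3% were above the median, and 4 of 11 members were. Of those with 2 it was 63.1% of all genes and 10 of 12 members, and of those with 3 it was 76.1% and 1 of 3. Members with 4, 5 and 6 probe sets numbered 3, 3 and 1, all above, against 82.7%, 87.9% and 93.1% of all genes. The shares of 66.7% and 54.8% are not matched for the number of probe sets. Among genes with 1 or 3 probe sets the members' share was not the higher one. A floor at the 75th percentile gave a members' count of 8 of 33 (24.2%) against 30.7% of all genes, so the order of these shares depends on the floor.

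**Figure D1:**
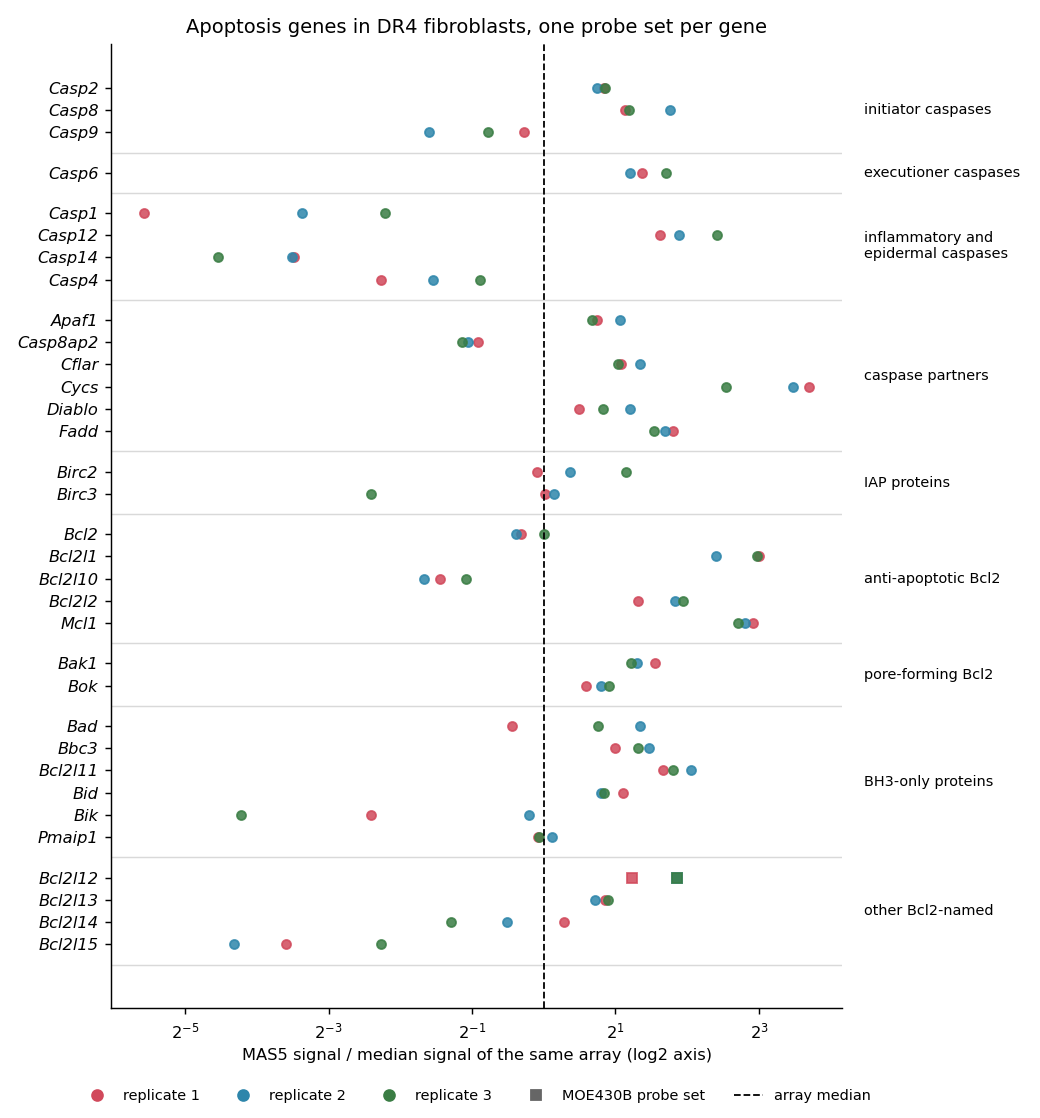
Signal of each apoptosis gene divided by the median signal of the same array, on a log2 axis, with 1 point per replicate and the dashed line at the array median. Each gene is shown by its brightest MOE430A probe set, or its MOE430B probe set (squares) where it had none, and 19 of 33 genes have all 3 points right of the line. Positions of different genes do not rank their transcripts.

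Among the initiator caspases, Casp8, which death receptors activate, had signals of 1504, 2309 and 1661 (1825 ± 426, n = 3). Casp2, the initiator of the PIDDosome, read 1226, 1144 and 1320.0, all above the median and within a narrow range. Casp9, the protease that the apoptosome activates, was not above the median by any of its 3 probe sets. Its MOE430A probe sets read 568, 226 and 428 in one case and 89.0, 319 and 462 in the other. The MOE430B probe set read 436, 941 and 441 and passed the median of its array on replicate 2 alone. The executioner Casp6, which cleaves nuclear lamins, was above the median on both array types, at 1769, 1567 and 2396 on MOE430A and 1021, 1777 and 1283 on MOE430B. Replicate 3 was the highest of the former and replicate 2 of the latter.

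The inflammatory caspases split. Casp12, a rodent caspase tied to the endoplasmic reticulum, had signals of 2111, 2513 and 3911 at its brighter probe set and 733, 846 and 941 at the other. Both were above the median on all 3 arrays, and both were highest on replicate 3 and lowest on replicate 1. Casp1, which matures interleukin-1 beta, read 14.5, 66.1 and 159. Casp4, the sensor of bacterial lipopolysaccharide inside the cell, read 143, 234 and 394. Both lay far under the median on every array, so the order of their replicates is not read as a pattern. Casp14, a caspase of cornifying epidermis, gave opposite readings on the array types. Its MOE430A probe set read 61.3, 60.0 and 31.5, far under the median, and its MOE430B probe set, of a kind marked x that can cross-hybridize, read 8057, 5029.9 and 8367. Casp14 is counted as above the median through that probe set alone, and without probe sets marked x or s the count of genes is 21.

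Of the 6 partners that assemble, hold or release caspases, only Casp8ap2 was not above the median. Cycs, the cytochrome c gene, read 8899, 7569.9 and 4251 at its brightest MOE430A probe set, 6866, 4804 and 4503 at the second and 2177, 1782 and 1299 at the third. All 3 were highest on replicate 1 and lowest on replicate 3. Its MOE430B probe set read 235, 369.6 and 192, under the median on each array. Apaf1, the scaffold of the apoptosome, read 1143, 1423 and 1165 at one probe set and 1031, 911 and 742 at the other. The lowest of these stood at 1.01 times the median of its array, which makes that probe set the closest to the floor among those counted. Fadd, the death receptor adaptor, read 2399, 2206 and 2118 (2241 ± 144, n = 3) on MOE430A. On MOE430B it read 1461, 1258 and 840.0, which fell short of the median on replicate 3 at 0.930 times its value.

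Cflar, the catalytically dead relative of caspase-8 that blocks it, had 4 MOE430A probe sets. The 2 above the median read 1447, 1726 and 1503 in one case and 1137, 991 and 1634 in the other. A further one read 690.1, 507 and 522 and the last 137, 274 and 171, so the same gene stood on both sides of the floor. Its MOE430B probe set read 929, 192 and 247, of which only replicate 1 passed. Diablo, the mitochondrial protein that displaces inhibitors from caspases, read 966, 1575 and 1302 at one probe set and 258, 42.7 and 310.1 at the other. Casp8ap2, a large protein that binds caspase-8, had steady signals of 365, 328 and 333 under the median. The inhibitor of apoptosis genes Birc2 and Birc3, ubiquitin ligases of the tumour necrosis factor receptor complex, were not above the median on all arrays. Birc2 read 645, 877 and 1619 and missed it on replicate 1 alone, at 0.939 times its value. Birc3 read 696, 753 and 138 at a probe set that missed it on replicate 3 alone, and 293, 98.7 and 367 at one that was under it throughout.

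Of the guardians of the mitochondrion, Mcl1 passed at every probe set, Bcl2l1, Bcl2l2 and Bcl2 at some and Bcl2l10 at none. All 6 probe sets of Mcl1, a short-lived guardian, lay above the median, and the brightest read 5193, 4774 and 4781 (4916 ± 240.0, n = 3). The others ranged from 1144 to 5425 on single arrays. Bcl2l1, which encodes Bcl-xL, had 3 probe sets above the median. They read 5502, 3612 and 5745 at the brightest, 3641, 1507 and 2235 at the second and 1974, 976 and 2321 at the third. Replicate 2 was lowest at each of the 3. The remaining probe set read 283, 355 and 53.5, under the median. Bcl2l2, which encodes Bcl-w, read 1713, 2423 and 2816 at its brightest probe set. Its others lay under the median on every array, one at 650.5, 226 and 639.7, another at 189, 55.0 and 167 and the third, marked x, at 75.1, 68.4 and 88.4. Bcl2 itself was not above the median on MOE430A, at 551, 523 and 731. It was counted through MOE430B, where one probe set read 2509, 1805 and 2139.5 and another 1022, 989 and 1206. The remaining pair lay below, one at 576, 843 and 159 and the other at 328, 44.9 and 78.9. Bcl2l10, known mainly from oocytes, read 251, 214 and 345 and was under the median.

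Both measured pore formers were above the median. Bak1, which sits in the outer mitochondrial membrane, read 2006, 1690.1 and 1699 at one probe set. Its other probe set, of the kind marked s that matches several transcripts, read 520.3, 682 and 2009.5, so only replicate 3 passed there. Bok, a relative linked to the endoplasmic reticulum, read 1038, 1191 and 1376. Among the BH3-only genes, Bcl2l11, which encodes Bim, had 3 probe sets above the median, each lowest on replicate 1. They read 2176, 2823 and 2548 at the brightest, 1426, 2199 and 1621 at the second and 883, 1222 and 1353 at the third. Of the remaining pair, one read 360.0, 1058 and 652 and passed on replicate 2 alone, and the other read 522, 417 and 635. Bbc3, which encodes the p53 target Puma, read 1365, 1887 and 1815, again lowest on replicate 1.

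Bid, the BH3-only protein that caspase-8 cleaves, read 1482, 1182 and 1311 at one probe set and 153, 51.0 and 72.1 at another. Its MOE430B probe set, marked x, read 699, 59.8 and 724 and was under the median throughout. Bad, which growth factor signalling keeps phosphorylated and inactive, read 915, 1268 and 1054 at the probe set above the median and 504, 1727 and 1237 at the other. The latter passed the median on replicates 2 and 3 and not on replicate 1. Pmaip1, which encodes the Mcl1 antagonist Noxa, read 647, 742 and 697 and passed on replicate 2 alone. Its lowest ratio to the median, 0.942, makes it the member nearest the floor from below. Bik, a BH3-only protein of the endoplasmic reticulum, was under the median at all 3 probe sets. The one marked x read 129, 590.1 and 39.2, a 15.1-fold spread between its arrays. The others read 160.2, 86.6 and 137 in one case and 157, 36.6 and 124 in the other.

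The genes that carry the Bcl2 name without a settled place in the pathway also split. Bcl2l13, a mitochondrial receptor for mitophagy, read 1243, 1118 and 1365 on MOE430A and 3852, 3355 and 2033 on MOE430B, above the median on both. Bcl2l12 read 1991, 3313 and 3288 at one MOE430B probe set and 108, 124 and 120.5 at the other. Bcl2l14 read 838, 479 and 297 at one probe set and 242, 306 and 795 at the other, and passed on replicate 1 alone at the former and on replicate 3 alone at the latter. Bcl2l15 read 56.8, 34.1 and 151, under the median on every array.

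By probe set, 33 of 63 MOE430A members (52.4%) were above the median, against 42.5% of all MOE430A probe sets. A further 9 passed on some arrays and 21 on none. On MOE430B it was 6 of 14 (42.9%) against 37.4%, with 3 passing on some arrays and 5 on none. In 13 of the 22 genes with several probe sets, some were above and some were not. The count of genes therefore depended on which probe sets were used: by the brightest MOE430A probe set alone 19 genes were above, without Bad, Bcl2 and Casp14.

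By the probe sets that both array types carry, the MOE430B floor was the less strict. The 100 probe sets shared by both array types read 4.15, 3.46 and 3.79 times higher on MOE430B (median ratio per replicate). Carried over by these ratios, the MOE430A floor stood at 2853, 2361 and 2773 on the MOE430B scale, and at most 21.3% of MOE430B probe sets lay above it on any array. With it 1 of the 14 MOE430B members was above, the Casp14 probe set marked x. The count of genes was then 20 of 33, without Bcl2 and Bcl2l12. These settings were chosen after seeing the data.

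**Figure D2:**
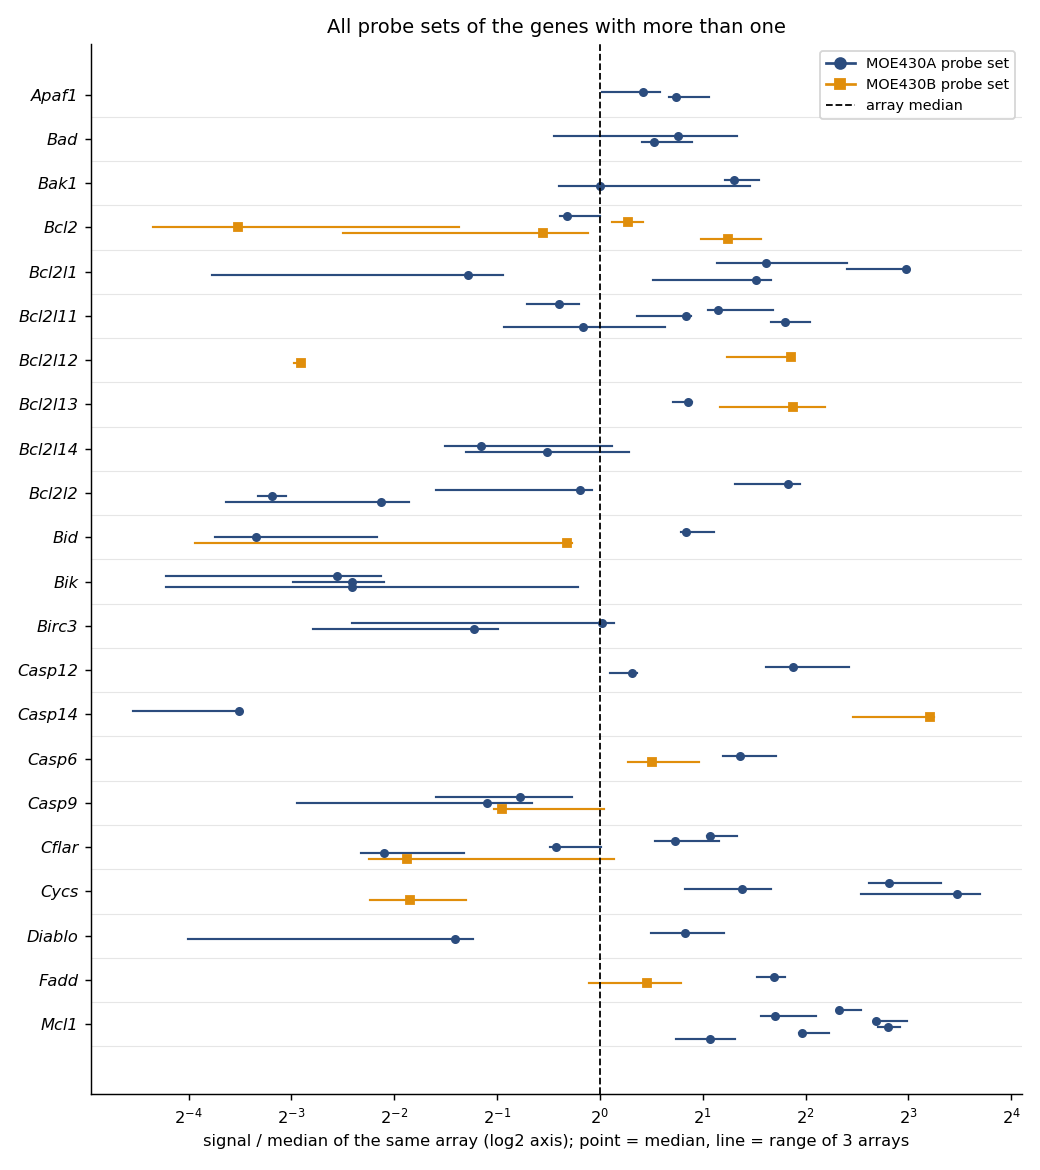
Signal divided by the array median on a log2 axis for every probe set of the 22 genes with more than 1, with the point at the median and the line over the range of 3 arrays. Circles are MOE430A and squares MOE430B. The 6 Mcl1 probe sets stay right of the dashed line at the array median, and probe sets of Bcl2l1, Bcl2l2, Bid, Cflar and Diablo lie on both sides of it.

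The error of this control profile is the spread between its replicates, measured as the SD of log2(signal + 16) over 3 arrays. It was taken over probe sets whose mean log2 signal exceeded the mean log2 floor. Such probe sets need not pass on every array, so they number 36 among the MOE430A members. Their median SD was 0.27, against 0.26 for all 11086 such MOE430A probe sets, so the members' value lay close to that of the array. The highest array exceeded the lowest by over 2-fold in 6 of 36 (16.7%) against 11.8% on MOE430A, and in 0 of 7 against 25.7% on MOE430B. Without replicate 1 the members' median SD was 0.17 and that of all probe sets 0.20. On MOE430B it was 0.41 for 7 members and 0.33 for all 10615, and without replicate 2 these values were 0.23 and 0.28.

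Among probe sets above the median on all arrays, the smallest spread was that of Mcl1, with an SD of 0.07 at the brightest probe set. Fadd (0.09), Casp2 (0.10) and a second probe set of Mcl1 (0.11) followed. Bcl2l1 had the largest, 0.66 and 0.63 at the 2 probe sets with IDs marked a, where the highest array exceeded the lowest 2.38-fold and 2.42-fold. Cycs followed with 0.56 and 2.09-fold, and Casp12 with 0.46 and 1.85-fold. On MOE430B the largest were Bcl2l13 (0.48), Bcl2l12 (0.42), Casp14 (0.41), Casp6 (0.40) and Bcl2 (0.24).

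**Figure D3:**
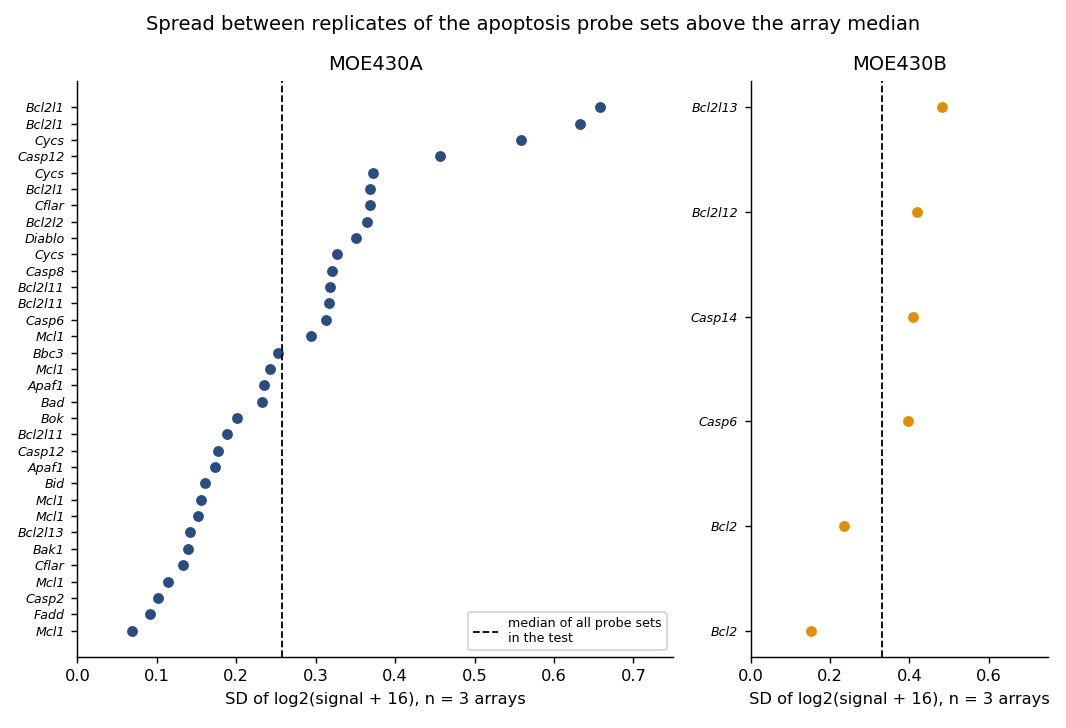
SD of log2(signal + 16) over 3 arrays for each apoptosis probe set above the median on all arrays, named by gene, on MOE430A (left) and MOE430B (right). The dashed line marks the median SD of all probe sets in the test, 0.26 and 0.33. Probe sets of Bcl2l1 and Cycs lie farthest right on MOE430A, and Mcl1, Fadd and Casp2 farthest left.

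The labels set replicate 1 apart by its preparation, from more cells and with a lower RNA concentration. A linear model that shares variance between probe sets, limma, set replicate 1 against the other two on log2(signal + 16), each array type on its own. A probe set was called at a Benjamini-Hochberg adjusted p of 0.05 over all probe sets tested. With 1 array against 2, the single residual degree of freedom is the difference of replicates 2 and 3, and replicate 1 is taken to scatter as they do. On MOE430A replicates 2 and 3 also differed in scan day and fluidics station, so that difference includes any effect of either. The rest of the error estimate is limma's prior, worth 26.5 degrees of freedom on MOE430A and 3.47 on MOE430B, so p-values, SEs and intervals rest mainly on it. On MOE430A, 78 of 11086 probe sets were called (0.704%), 24 higher and 54 lower on replicate 1. The number was 0 without the filter on low values, 0 after quantile normalization and 167 with a trended prior. Of the 36 apoptosis probe sets 0 were called, and 4 had an unadjusted p under 0.05, as did 901 of all. On MOE430B 0 of 10615 were called (0%), 766 at an unadjusted p under 0.05, and of the 7 members 0 were called and 0 had such a p. The 95% intervals of the members reached 0.75 to 0.91 to either side on MOE430A and 0.96 to 1.25 on MOE430B (log2).

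The nearest to a call was Bad. At the probe set that read 504, 1727 and 1237, replicate 1 lay under its floor of 687, so the fold is given as a bound. Replicates 2 and 3 averaged 2.10-fold brighter than that floor, and so at least 2.10-fold brighter than replicate 1. The measured log2 difference was -1.51 (limma adjusted p = 0.0553). This probe set entered the test through replicates 2 and 3, and without the filter on low values its adjusted p was 0.806. It was 0.0490 with a pseudocount of 64 and 0.0375 with a trended prior. The second probe set of Bad, above the median on all arrays, was also lowest on replicate 1, with a log2 difference of -0.33 (SE 0.37, limma adjusted p = 0.931).

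Birc2 and the Bak1 probe set marked s were likewise under the floor on replicate 1 and entered through the other arrays. For Birc2, replicates 2 and 3 averaged 1.72-fold brighter than the floor of replicate 1, and so at least 1.72-fold brighter than replicate 1. Its measured log2 difference was -0.87 (limma adjusted p = 0.541). At the Bak1 probe set replicate 2 was under its floor too, so no fold is given (limma adjusted p = 0.371), and the brighter probe set of Bak1 had a log2 difference of 0.24 with replicate 1 the highest. Bcl2l1 gave a log2 difference of 0.98 (SE 0.38, limma adjusted p = 0.368) at the probe set that read 3641, 1507 and 2235. At its other probe sets above the median the differences were 0.39 and 0.27, and replicate 1 lay between replicates 2 and 3. None of these passed the test.

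By role, differences of the 7 BH3-only probe sets (4 genes) were negative in 6, among them the Bad probe set under its floor on replicate 1, and positive in Bid alone (0.25). The 10 guardian probe sets were positive in 7 and negative in 3, with a median of 0.21, and the 9 probe sets of caspase partners positive in 5, with a median of 0.15. All 3 Cycs probe sets were positive (0.51 to 0.65), and all 3 of Bcl2l11 negative. Both Casp12 probe sets were negative, and the 6 of Mcl1 went both ways (4 positive, 2 negative). Probe sets of a gene share that gene's transcripts and these arrays, so they are not independent. Over all 36 the median was -0.16, against -0.01 for all MOE430A probe sets tested, and on MOE430B 0.31 over 7 against 0.03. Replicate 1 lay outside the range of the other two in 30 of 36 (83.3%) against 68.8% of all, and in 5 of 7 (71.4%) against 69.7% on MOE430B. On MOE430A it was lowest in 18 of 36 (50%), against 35.6% of all. The 36 include the Bad, Birc2 and Bak1 probe sets under the floor on replicate 1, each lowest there. They entered through other arrays and feed these counts and the median of -0.16, so those values are descriptions and support no difference of replicate 1.

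**Figure D4:**
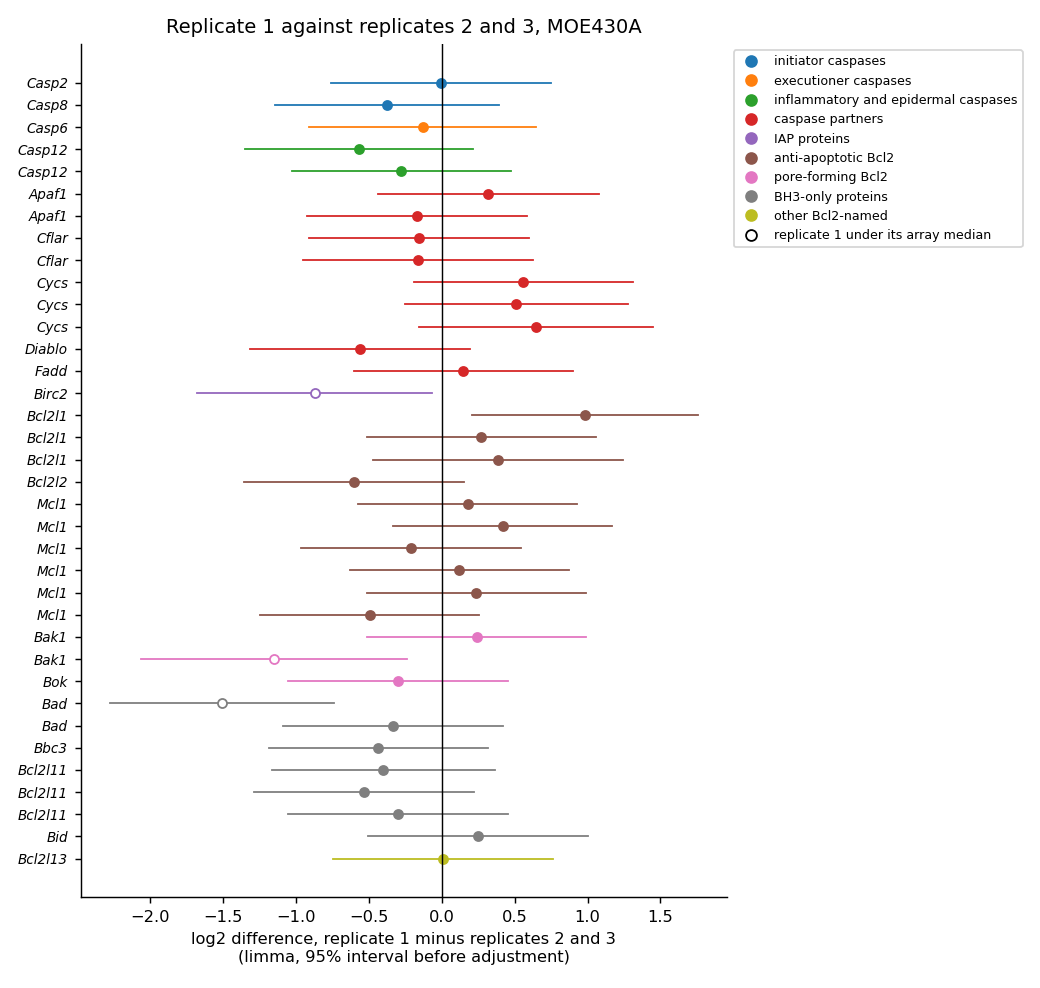
Log2 difference of replicate 1 minus replicates 2 and 3 for the 36 MOE430A apoptosis probe sets tested, with 95% limma intervals before adjustment, coloured by role. Open points mark probe sets whose replicate 1 signal lay under its array median. Most BH3-only points lie left of 0 and the Cycs and Bcl2l1 points right of it, and all but 4 of the 36 intervals cover 0.

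Preparation, scan day and fluidics station overlapped. On MOE430A, the scan day and the station were the same for replicates 1 and 2 and others for replicate 3. Within that day the measured log2 difference of the Bad probe set was -1.74 between replicates 1 and 2, against -1.27 between replicates 1 and 3. On MOE430B all arrays shared a scan day, and replicate 1 alone ran on its station, so an effect of the station there cannot be told apart from one of the preparation. RNA integrity probes of Actb gave 3' to 5' signal ratios of 1.05, 1.17 and 1.09 on MOE430A, and those of Gapdh 1.27, 1.16 and 0.846. The markers were also summed by list, each sum read only against itself across replicates. The fibroblast sum was 540510, 633355 and 645952, lowest on replicate 1, although its members Vim, Thy1 and S100a4 were highest there. The myeloid sum (8116, 8087 and 6528) and the epithelial sum (5842, 4878 and 3841) were highest on replicate 1, the former by little. Of the probe sets in these sums that lay above the median, those of Cd14, Lyz2 and Krt8 were highest on replicate 2. That of Csf1r was highest on replicate 1. The pluripotent sum (1971, 3039 and 1916) was highest on replicate 2 and the endothelial sum (3147, 3245 and 3379) on replicate 3. The part of all these in the differences was not tested.

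Around the members, the lists of pathway genes differed in how many lay above the median (54.8% over all genes). The lists are not matched to that share for the number of probe sets per gene, and genes with more probe sets pass more often. Of 13 other BH3-only and mitochondrial genes 11 were above the median. These include the mitochondrial channels Vdac1 (22307 ± 2334), Vdac2 (16103 ± 3447) and Vdac3 (7864 ± 1946), and Tmbim6 (8299 ± 991), an inhibitor of Bax-driven death in the endoplasmic reticulum (all n = 3). Of 12 caspase substrates and nucleases 10 were above it, with the actin-severing Gsn at 41343 ± 2909.6, the lamin gene Lmna at 18893 ± 1225 and the spectrin gene Sptan1 at 8171 ± 517. Gsdmd, whose product forms pores in pyroptosis, read 4113 ± 522 on MOE430B.

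Of 11 measured p53 regulators and targets 9 were above the median, with the cell cycle inhibitor Cdkn1a at 34890.2 ± 3206 (n = 3), Ccng1 at 21346 ± 3980.3, Ei24 at 6904 ± 831 and the p53 ubiquitin ligase Mdm2 at 6648 ± 1289. Of 17 death ligands, receptors and adaptors 8 were above the median (47.1%), near the share of all genes. Tnfrsf12a, the TWEAK receptor, read 16846, 8028 and 8570.1, with replicate 1 the highest, and Tnfrsf1a, a receptor for tumour necrosis factor, 9377, 9791 and 10491. Daxx read 2978 ± 297 and the necroptosis kinase Ripk3 2235 ± 1034. The ligand genes Fasl, Tnf and Tnfsf10 and the receptor Fas were not above the median.

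Of 7 other inhibitors of apoptosis, Xiap (2047 ± 282), Birc6 (1121 ± 186) and the mitotic Birc5 (954 ± 175) were above the median (n = 3 each). Of 7 inflammasome genes and interleukin substrates 2 were above the median, with Il1b at 1036 ± 359.8. In the comparison of replicate 1, 0 of 46 genes of these lists were called by limma. Of the 46, 4 had an unadjusted limma p under 0.05, as did 901 of all 11086 MOE430A probe sets and 766 of 10615 on MOE430B. The lowest limma adjusted p in these lists was 0.301, for Tnfrsf12a at a log2 difference of 1.02 (SE 0.37). The 11 other BH3-only and mitochondrial genes had a median difference of 0.40, against -0.01 for all MOE430A probe sets, and were not tested as a set.

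The chromosome order of the members was read from RefSeq. Cflar and Casp8, an inhibitor and its target, are next to each other on chromosome 1, and both were above the median. Bcl2l13 and Bid are neighbours on chromosome 6, and both were above it as well. Casp1, Casp4 and Casp12 follow each other on chromosome 9, and of these Casp12 alone was above. Birc2 and Birc3, neighbours elsewhere on chromosome 9, were both not above.

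Start regions of the genes above the median held, by the median count, more CpG than those of the genes not above it. CpG is the dinucleotide that is dense in the CpG islands of many widely expressed genes. RefSeq windows on build GRCm38.p6 spanned 300 bases around each annotated start, 250 before and 50 after. They were found for 30 of the 33 genes, in 39 windows. Bik, Bcl2l10 and Pmaip1 had none, and each of them is a gene not above the median. The median count of CpG was 22 in 28 windows of the 22 genes above the median, 6 in 11 windows of 8 genes not above, and 7 in all 32851 windows of the table. The motif GGGCGG, a letter match to the binding site of Sp1-type factors, was searched on both strands, and each match holds a CpG. It was present in 67.9% of windows of genes above the median, 27.3% of those not above and 35.7% of all. These shares count windows and not genes, and windows of a gene can overlap, as those of Casp4 do. Among genes not above, Casp8ap2, Casp9 and a single start of Birc2 held the matches. Casp4 and Bcl2l14, with no match, each entered with several windows. TATAAA, searched on both strands, was in 5.13% of member windows against 13.6% of all, and CCAAT in 33.3% against 37.4%. These are descriptions of few genes, with no test.

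The windows printed here, with every CpG in capitals, show the range. Apaf1 and Mcl1 are above the median and rich in CpG. Casp12 and Casp1 belong to the same cluster of inflammatory caspases and hold few CpG, and the former is above the median and the latter is not. Apaf1 lies on the minus strand at chr10:91082694-91082993 and holds 46, the most of any member. Mcl1 is on the plus strand at chr3:95658471-95658770 and holds 33. Casp12, plus strand at chr9:5345226-5345525, and Casp1, plus strand at chr9:5298267-5298566, hold 3 each.
Apaf1: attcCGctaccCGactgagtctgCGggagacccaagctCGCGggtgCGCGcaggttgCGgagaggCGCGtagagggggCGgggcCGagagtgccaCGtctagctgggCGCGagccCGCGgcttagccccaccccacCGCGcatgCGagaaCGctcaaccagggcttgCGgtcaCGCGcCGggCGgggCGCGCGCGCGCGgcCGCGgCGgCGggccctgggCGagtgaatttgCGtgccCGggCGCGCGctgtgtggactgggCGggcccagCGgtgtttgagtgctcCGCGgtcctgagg
Mcl1: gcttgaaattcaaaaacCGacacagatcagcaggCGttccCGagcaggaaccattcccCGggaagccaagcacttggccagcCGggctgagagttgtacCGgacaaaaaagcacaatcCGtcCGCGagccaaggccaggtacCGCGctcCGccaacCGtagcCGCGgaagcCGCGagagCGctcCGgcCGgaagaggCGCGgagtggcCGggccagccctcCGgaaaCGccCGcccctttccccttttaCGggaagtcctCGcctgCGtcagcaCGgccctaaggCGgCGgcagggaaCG
Casp12: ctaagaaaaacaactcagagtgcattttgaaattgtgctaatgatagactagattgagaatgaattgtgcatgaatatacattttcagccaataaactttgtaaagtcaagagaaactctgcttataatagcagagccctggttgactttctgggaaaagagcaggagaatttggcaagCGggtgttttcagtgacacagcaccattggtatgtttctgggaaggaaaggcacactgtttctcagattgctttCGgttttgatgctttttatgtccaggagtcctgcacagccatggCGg
Casp1: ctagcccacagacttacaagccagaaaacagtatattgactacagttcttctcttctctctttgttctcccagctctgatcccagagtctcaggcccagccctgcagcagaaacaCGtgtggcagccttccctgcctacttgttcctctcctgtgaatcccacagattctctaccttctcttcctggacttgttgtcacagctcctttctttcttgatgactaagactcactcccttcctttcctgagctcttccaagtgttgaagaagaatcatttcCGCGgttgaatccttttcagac

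In the Apaf1 and Mcl1 windows the CpG lie close together, and both windows hold a GGGCGG match. In the Casp12 window a CCAAT match is present and no GGGCGG. The split was not clean. Casp8ap2 (31 CpG), Casp9 (28) and Birc2 (34 and 21 at separate starts) were rich in CpG and not above the median. Casp8 (5) and Casp12 (3) were poor in it and above. Bcl2l1 had starts with 22, 14 and 1, and the array values do not say which was used.

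**Figure D5:**
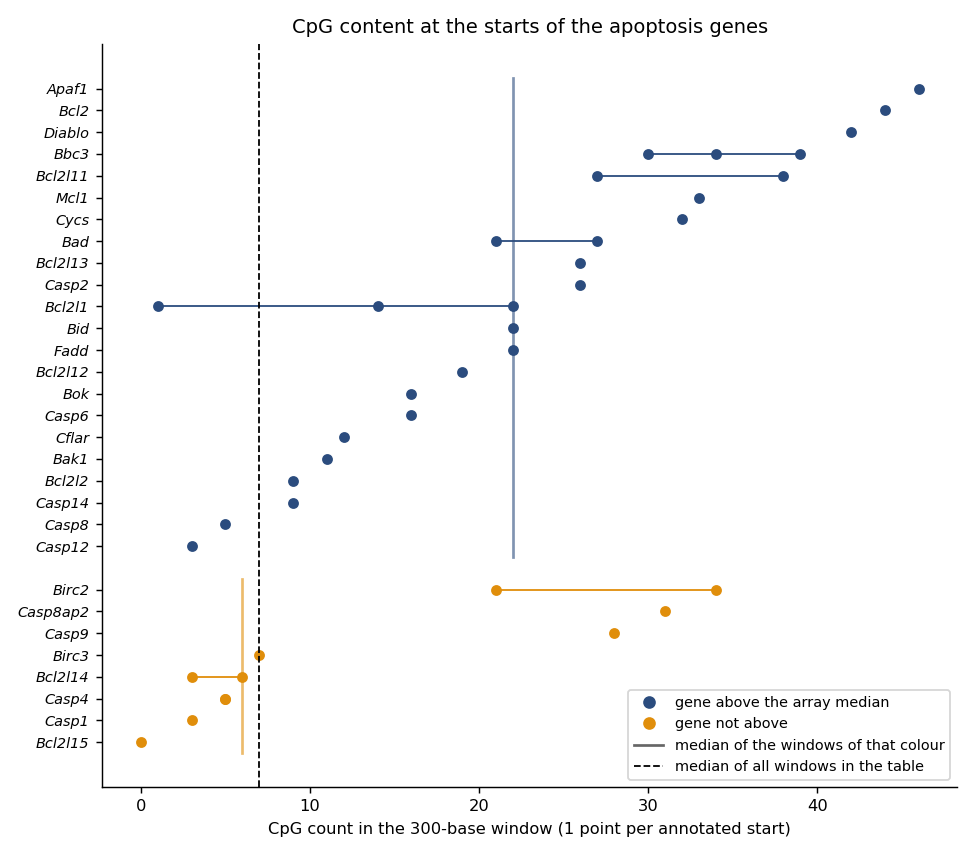
CpG count in the 300-base window at each annotated start, by gene, for genes above the array median (upper group) and not above (lower group). Vertical lines mark the median of each group, 22 and 6, and the dashed line the median of all windows, 7. Casp9, Casp8ap2 and Birc2 lie to the right in the lower group, and Casp8 and Casp12 to the left in the upper.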

How the data were processed

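Per the labels, the molecule was total RNA of DR4 fibroblasts and the label was biotin, with 3 replicates each on MOE430A and MOE430B arrays. The deposited intensities are linear MAS5 signals. MAS5 is credited to the submitters' processing notes, with version and settings not given in the sources used here. Left out were 64 control probe sets per array and 3 member probe sets with several symbols. Names followed GEO's platform annotation, updated through RefSeq: a single symbol belonged to 20380 MOE430A and 14661 MOE430B probe sets, several to 691 and 245, and 1555 and 7605 are unnamed here. Instrument records gave scan day and station.

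Levels stayed within an array type, except for the ratio of shared probe sets. The comparison of replicate 1 used limma 3.58.1 in R 4.3.3 on log2 values computed from the deposited intensities as log2(signal + 16), which understates changes of dim probe sets. Probe sets entered if their mean log2 signal exceeded the mean log2 floor. Tables were made with Python 3.11.15 and pandas 2.3.3. The number of arrays limits the precision.

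Members, gene lists and tests were chosen with earlier results of these data known. A gene's value is its brightest MOE430A probe set, or MOE430B where it has none there. The rule named members above the median, their other probe sets on the other side of it, the 5 largest spreads per array type, and up to 4 of the brightest genes above the median per pathway list. Members under the median, the smallest spreads, the probe sets near the floor, Fas, Fasl, Tnf, Tnfsf10 and the markers printed were added after their values were seen. Alternatives varied the floor, pseudocount, filter, normalization, variance prior, probe sets and replicates.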

Additional observations from a re-analysis of the deposited data

How the results depend on the processing

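Counts above the floor depended most on the floor itself. With the 75th percentile as the floor, 8 genes, 11 MOE430A probe sets and 2 MOE430B probe sets were above. With the MOE430A floor carried to MOE430B, chosen after seeing the data, 1 MOE430B probe set was above. The fixed signal of 200, the 25th percentile, the left-out replicates and the other choices of probe sets gave 19 to 28 genes, and leaving out a replicate gave 22 to 23 genes, 33 to 35 MOE430A and 6 to 7 MOE430B probe sets. Birc2 joined without replicate 1 and Birc3 without replicate 3. The median SD of the members ranged over the left-out replicates from 0.17 to 0.27 on MOE430A and from 0.23 to 0.33 on MOE430B. Calls of limma on MOE430A numbered 0 with no filter, 0 after quantile normalization and 167 with a trended prior, and the members called numbered 1 with a pseudocount of 64 and 1 with the trended prior. In both settings this was Bad, at log2 differences of -1.43 and -1.51, and its adjusted p ranged from 0.0375 to 0.806 over the settings. The cause was not tested. Over the members and settings fitted, 212 results kept their direction and side of the threshold and 2 gained a call. The remaining one, Casp2 after quantile normalization, changed sign from -0.00 to 0.04. On MOE430B no setting gave a call. Leaving out a replicate of the limma fit leaves no residual degree of freedom, so it gives values with no test. No paired analysis was possible because the groups that share replicate numbers are the 2 array types, and no transcript was tested between them: the ratios of shared probe sets served only to carry a floor over. Precision is limited by 3 arrays of a single group, and brightness over background is not known, because the floor is a median and no detection call was used.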
